A study of Mus musculus with 2 samples.

Results

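Open sites at the starts of long non-coding RNA (lncRNA) genes in mouse frontal cortex were taken as peaks that met a rule of position. The midpoint had to lie within 500 bp of a transcript start of a lincRNA, antisense, bidirectional_promoter_lncRNA or processed_transcript gene of GENCODE M21, and over 1 kb from every transcript start of a protein-coding gene, on the 19 autosomes. These lncRNA-start peaks numbered 1794 of 104654 peaks in replicate 1 and 1389 of 81654 peaks in replicate 2, or 1.76% and 1.75% of the autosomal peaks. They are set beside peaks centred within 500 bp of a coding start (22955 in replicate 1 and 20565 in replicate 2), peaks over 1 kb from every annotated start of any gene type (67888 and 50706), and all autosomal peaks (101790 and 79516).

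The measurement was DNase-seq. DNase I, a nuclease, cuts DNA most readily where it is not wrapped in nucleosomes, and sequencing the cut ends shows where that was. The study has 1 group, frontal cortex of 10-day-old female B6CASTF1/J mice, a first-generation cross of the C57BL/6J and CAST/EiJ strains, in biological replicates 1 and 2. The labels also carry the mark "3x" without saying what it stands for. No treatment, genotype or age was compared, so the spread between the 2 libraries is the only replicate error, and the contrasts between classes of peaks below are descriptions without a test. Frontal cortex holds neurons, glia and vascular cells together, and a weak peak from few open cells or from slight opening in many cells cannot be told apart in tissue. As a partial check of the label, the neuronal and glial genes Snap25, Syt1, Neurod6, Slc17a7, Gad1, Aldoc and Olig1 had a peak at a start in both libraries. None of 7 genes of liver, muscle, blood or posterior body regions had one in either library.

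LncRNAs carry no long reading frame, and most are transcribed by RNA polymerase II from promoters built much like those of coding genes. Some act in the nucleus, such as Malat1 in nuclear speckles and Neat1 in paraspeckles, some silence imprinted neighbours in cis, such as Airn and Kcnq1ot1, and others serve as hosts from which small nucleolar RNAs (snoRNAs) or microRNAs are cut. An active promoter is usually free of nucleosomes just upstream of the start, and a protein bound there can leave a footprint, a short stretch that DNase I cuts less than its surroundings.

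Windows of 5 well-known lncRNA starts are given first, because they show in sequence what the peak and footprint calls cover. These 5 were picked after their values were seen. The bases are the C57BL/6J reference of GRCm38.p6 from RefSeq, not a read of the CAST allele, written 5′ to 3′ on the strand of the gene. Capitals mark bases under a called footprint in both libraries.
Malat1: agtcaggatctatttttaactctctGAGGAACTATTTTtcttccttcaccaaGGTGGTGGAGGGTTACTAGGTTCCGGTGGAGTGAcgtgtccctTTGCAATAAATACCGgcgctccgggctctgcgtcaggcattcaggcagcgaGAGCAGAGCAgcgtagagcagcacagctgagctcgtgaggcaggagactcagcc
Snhg8: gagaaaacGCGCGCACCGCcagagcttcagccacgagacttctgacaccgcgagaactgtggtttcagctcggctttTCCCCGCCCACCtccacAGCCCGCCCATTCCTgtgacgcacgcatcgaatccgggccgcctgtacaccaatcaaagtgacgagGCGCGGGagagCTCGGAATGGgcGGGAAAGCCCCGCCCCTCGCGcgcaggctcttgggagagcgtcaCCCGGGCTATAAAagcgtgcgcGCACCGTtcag
Snhg15: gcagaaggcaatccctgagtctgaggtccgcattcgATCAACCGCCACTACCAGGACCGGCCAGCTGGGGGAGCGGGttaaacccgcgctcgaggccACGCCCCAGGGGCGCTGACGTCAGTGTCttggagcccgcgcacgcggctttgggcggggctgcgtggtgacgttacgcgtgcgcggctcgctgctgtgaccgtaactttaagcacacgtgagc
Meg3: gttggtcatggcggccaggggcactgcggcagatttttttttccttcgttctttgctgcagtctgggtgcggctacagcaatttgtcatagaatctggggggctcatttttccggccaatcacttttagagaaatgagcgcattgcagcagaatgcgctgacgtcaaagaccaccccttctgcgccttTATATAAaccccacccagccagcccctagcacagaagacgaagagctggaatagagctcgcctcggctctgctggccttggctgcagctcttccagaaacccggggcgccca
Miat: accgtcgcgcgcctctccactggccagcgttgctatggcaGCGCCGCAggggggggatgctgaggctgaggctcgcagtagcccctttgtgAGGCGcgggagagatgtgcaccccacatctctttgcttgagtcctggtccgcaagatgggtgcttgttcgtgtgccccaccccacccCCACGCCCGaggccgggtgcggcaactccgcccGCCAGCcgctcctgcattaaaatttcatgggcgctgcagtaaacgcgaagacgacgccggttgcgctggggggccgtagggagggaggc

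The Malat1 window is chr19:5802601-5802800 on the minus strand, and footprints covered 86 of its 200 bases in replicate 1 and 87 in replicate 2, with 72 covered in both. In the Snhg8 window, chr3:123508341-123508600 on the minus strand, 96 of 260 bases were covered in both. They include a whole match to GGGGCGGGG, the sequence of the SP and KLF factors, centred 2 bp upstream of the annotated start. In the Snhg15 window, chr11:6528741-6528960 on the minus strand, 69 of 220 bases were covered in both. They include a whole TGACGTCA, the cAMP response element (CRE) bound by CREB factors, centred 85 bp upstream of the start. Meg3, chr12:109540781-109541080 on the plus strand, had only 7 of 300 bases covered in both libraries. Those bases lie in overlapping TATAAA sequences, read on either strand, that were centred 28 and 32 bp upstream of the start, where a TATA box usually sits. The same window held a TGACGTCA centred 59 bp upstream, with all 8 bases under a footprint in replicate 1 and 0 in replicate 2. For Miat, chr5:112228731-112229030 on the minus strand, the middle 300 bases of a wider peak are shown, of which 93 were covered in replicate 1, 50 in replicate 2 and 28 in both. Neither the Malat1 nor the Miat window held any of the 18 factor sequences searched.

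The next 8 stretches show motif matches in place: each is from the strongest paired lncRNA-start peak with a match to that factor sequence under a footprint in both libraries, where the match had to lie within the 200 bp around the midpoint in both. The TATAAA of Snhg8 in capitals above, 40 bp past the start, lies outside that window. Each stretch runs 40 bases to either side of the match on the strand of the gene, in the same build, with the match in capitals.
2610035D17Rik: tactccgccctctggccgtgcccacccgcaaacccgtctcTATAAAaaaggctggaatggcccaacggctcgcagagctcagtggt
Tmem250-ps: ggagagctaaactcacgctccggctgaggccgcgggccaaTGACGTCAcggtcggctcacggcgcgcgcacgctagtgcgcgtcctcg
1810026B05Rik: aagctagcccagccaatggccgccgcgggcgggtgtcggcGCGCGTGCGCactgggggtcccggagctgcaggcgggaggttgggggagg
2900052L18Rik: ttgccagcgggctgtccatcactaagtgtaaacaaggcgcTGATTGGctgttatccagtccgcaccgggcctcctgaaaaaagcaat
C030034I22Rik: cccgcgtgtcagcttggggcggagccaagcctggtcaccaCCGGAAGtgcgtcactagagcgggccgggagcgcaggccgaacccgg
1700096K18Rik: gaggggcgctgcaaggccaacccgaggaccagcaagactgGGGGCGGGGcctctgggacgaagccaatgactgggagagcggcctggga
1700064M15Rik: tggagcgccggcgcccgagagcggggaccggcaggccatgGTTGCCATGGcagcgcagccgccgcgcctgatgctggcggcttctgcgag
Snhg7os: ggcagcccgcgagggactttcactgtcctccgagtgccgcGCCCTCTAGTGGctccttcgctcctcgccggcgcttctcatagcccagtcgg

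The TATAAA of 2610035D17Rik, chr11:113201826-113201911 on the minus strand, was centred 31 bp upstream of its start. The TGACGTCA of Tmem250-ps, chr2:26140497-26140584 on the minus strand, was centred 20 bp upstream. A match to the NRF1 consensus lay 185 bp upstream of 1810026B05Rik at chr7:73558535-73558624 on the minus strand. CCAATCA, the NF-Y sequence, lay 62 bp upstream of 2900052L18Rik at chr11:120231604-120231690 on the minus strand. CCGGAAG, the ETS family sequence, lay 40 bp upstream of C030034I22Rik at chr17:69417319-69417405 on the plus strand. The SP and KLF sequence of 1700096K18Rik lay 373 bp upstream, at chr5:25529596-25529684 on the plus strand. A match to the RFX half-site was centred 2 bp upstream of 1700064M15Rik at chr12:99627931-99628020 on the minus strand. A CTCF consensus match was centred 41 bp upstream of Snhg7os at chr2:26640286-26640377 on the plus strand. Matches to other factor sequences met the same rule and are not shown. They were centred 67 bp (CAGATG) and 376 bp (RFX) past the start. Upstream ones lay at 26 bp (MEF2), 267 bp (EGR), 454 bp (AP1) and 492 bp (YY1). A match describes letters and is not a record of binding.

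The signal of a peak is the authors' score in the deposited list, taken as a cut density whose scaling is not stated. LncRNA-start peaks had a median signal of 0.677 in replicate 1 and 1.00 in replicate 2. Coding-start peaks had medians of 1.46 in replicate 1 and 1.98 in replicate 2, peaks away from every start 0.51 and 0.733, and all autosomal peaks 0.609 and 0.891. LncRNA starts thus lay between the other classes in both libraries, nearer to the peaks away from starts. From the 25th to the 75th percentile they ran over 0.422 to 1.35 in replicate 1 and 0.62 to 2.01 in replicate 2. Their 90th percentile was 2.58 in replicate 1 and 3.69 in replicate 2, against 6.18 and 7.32 at coding starts and 1.45 and 2.09 away from starts. Peak width differed less between classes, with medians of 213.5 and 220 bp at lncRNA starts, 240 bp at coding starts and 180 bp away from starts.

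**Figure D1:**
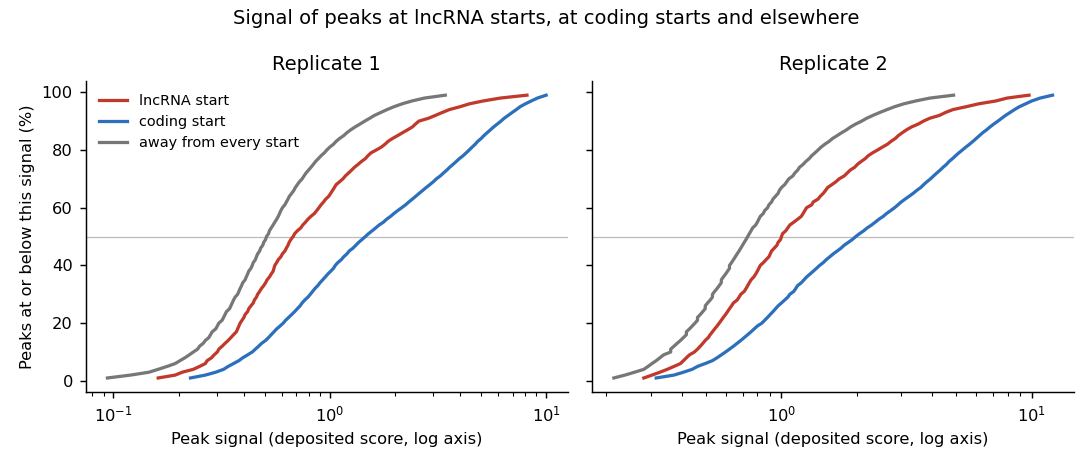
Cumulative distribution of peak signal in each library for peaks at lncRNA starts, at coding starts and away from every start; the horizontal axis is the deposited score on a log axis and the vertical axis the percentage of peaks at or below it. The lncRNA-start curve reaches 50% at 0.677 in replicate 1 and 1.00 in replicate 2, between the other curves.

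Of the lncRNA-start peaks, 1224 (68.2%) in replicate 1 and 1212 (87.3%) in replicate 2 overlapped a peak of the other library by at least 1 bp, where 64.8% and 83.0% of all autosomal peaks did. The shares at coding starts were 82.2% and 92.0%, and away from starts 59.4% and 79.5%. Replicate 2 has fewer peaks, and its shares were the higher ones in each class. With each library held to the same number of strongest peaks, 76.0% (replicate 1) and 82.4% (replicate 2) of lncRNA-start peaks were shared, against 75.8% and 76.3% of all autosomal peaks. A footprint was called in 1493 (83.2%) of the lncRNA-start peaks of replicate 1 and 1054 (75.9%) of those of replicate 2, where 82.5% and 72.3% of all autosomal peaks had one. Both shares were within 5 percentage points of the background over the full lists. The shorter peak list, also deposited, held 61.6% of the lncRNA-start peaks in replicate 1 and 63.2% in replicate 2, beside 56.7% and 56.8% of all autosomal peaks.

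At matched signal the classes were closer in sharing, except among the weakest peaks of replicate 2. The autosomal peaks of each library were split into 5 equal quintiles by signal. In the top quintile 98.4% (replicate 1) and 99.7% (replicate 2) of lncRNA-start peaks were shared, against 98.4% and 99.5% of coding-start peaks and 99.6% and 99.9% of peaks away from starts. In the middle quintile the shares were 64.5% and 88.1% at lncRNA starts, 63.1% and 86.6% at coding starts, and 67.2% and 90.7% away from starts. In the lowest quintile they were 25.7% and 64.0% at lncRNA starts, 22.8% and 58.9% at coding starts, and 23.9% and 51.6% away from starts. The classes fill the quintiles unequally: the top quintile held 23.7% and 23.6% of the lncRNA-start peaks, 50.8% and 48.2% of the coding-start peaks, and 10.4% and 9.66% of those away from starts. Footprints differed more than sharing in the middle quintile. There, 86.9% (replicate 1) and 76.1% (replicate 2) of lncRNA-start peaks had one, against 77.8% and 65.1% at coding starts and 91.8% and 87.3% away from starts. In the top quintile every class had 99.4% or more. In the lowest, the shares were 45.8% and 29.0% at lncRNA starts, 52.2% and 22.6% at coding starts, and 51.8% and 25.9% away from starts. The order of the classes there differed between the libraries.

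**Figure D2:**
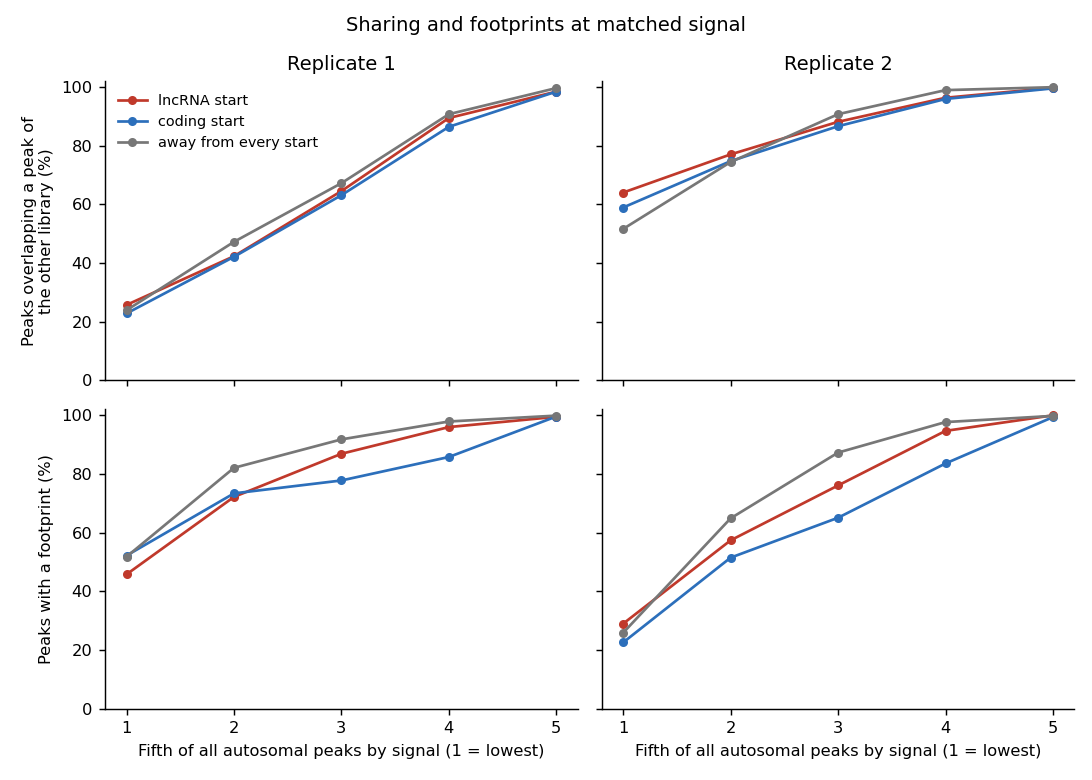
Percentage of peaks that overlap a peak of the other library (top) and that hold a footprint (bottom), by quintile of all autosomal peaks ranked by signal, for each library and class of peak. In the middle quintile the sharing of lncRNA-start peaks (64.5% and 88.1%) lies within 3 points of both other classes, while their footprint share (86.9% and 76.1%) lies between them.

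Signal was close between libraries where a peak was found in both. LncRNA-start peaks that overlapped 1 peak of the other library and no more, itself a lncRNA-start peak, formed 1065 pairs. Their log2 ratio of replicate 1 to replicate 2 had a median of -0.26, beside -0.25 over all 59515 autosomal pairs, and an SD of 0.30, beside 0.32. Across the lncRNA-start pairs log2 signal had a Pearson r of 0.969 and a Spearman rho of 0.964, as a description over peaks that share their 2 libraries. After the median over all autosomal pairs was subtracted, 957 pairs (89.9%) differed by at most 0.5 on the log2 scale and 2 pairs by over 1. Gm2109 on chromosome 9, a lincRNA gene, was the most tilted to replicate 1, at 1.24 in replicate 1 and 0.71 in replicate 2 and a centred log2 ratio of 1.06. Gm33728 on chromosome 10 was the most tilted to replicate 2, with 0.302 in replicate 1 and 0.722 in replicate 2 and a centred log2 ratio of -1.0. The 3 most tilted pairs at either end all had a signal of 1.24 or less in both libraries.

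**Figure D3:**
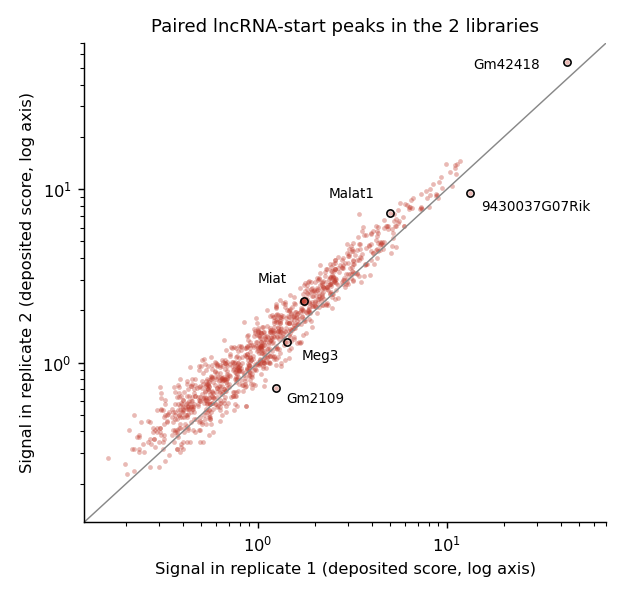
Signal of each of 1065 paired lncRNA-start peaks in replicate 1 (horizontal) and replicate 2 (vertical), both as deposited scores on log axes, with the line of equality; circled points are named genes. Points follow a band around and mostly above the line, with Gm42418 alone at the top (43.1 and 54.0) and Gm2109 below the band (1.24 and 0.71).

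The strongest pair was at Gm42418, annotated as a single-exon lincRNA, at chr17:39846781-39846920. It scored 43.1 in replicate 1 and 54.0 in replicate 2. This was the highest of all autosomal peaks in both libraries. In RefSeq, Gm42418 is a synonym of Rn18s-rs5, a pseudogene related to 18S ribosomal RNA, so the annotations differ on whether the gene is a lncRNA. Whether reads from other ribosomal RNA sequences were placed here was not tested, so the score may not describe this start alone. The next strongest pairs were close to one another. 1700028E10Rik had 11.7 in replicate 1 and 14.5 in replicate 2, with 8 footprints in each library. 2900052L18Rik had 11.3 and 14, 6720427I07Rik had 11.1 and 13.8, and Tmem250-ps had 11.1 and 13.2. Gm15408, 1700096K18Rik, Gm12762, 9430037G07Rik and Gm10433 completed the 10 with the highest mean, down to 9.33 and 11.7 at Gm10433. Of these 10, 9430037G07Rik was the most tilted to one library, with 13.3 in replicate 1, 9.55 in replicate 2 and a centred log2 ratio of 0.73, while the other 9 lay between -0.24 and 0.12. The CpG ratio, the number of CpG over the number that base composition gives in 300 bp, was 0.6 or more at 9 of the 10 and 0.578 at Gm15408. No role of these genes is known well enough to give here.

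Counted by gene, lncRNA starts were open less often than coding starts. Of all 9065 autosomal lncRNA genes, whatever their distance to coding genes, 30.3% in replicate 1 and 26.8% in replicate 2 had a peak within 500 bp of a start, against 66.8% and 64.1% of 20807 coding genes. The number of annotated starts per gene was not matched between lncRNA and coding genes. The lncRNA-start rule, which leaves out peaks near coding starts, gave lower shares. Of 7366 autosomal lncRNA genes with a start over 1 kb from coding starts, 1377 (18.7%) in replicate 1 and 1133 (15.4%) in replicate 2 had a lncRNA-start peak, and 1038 had one in both. By gene type the open share was 32.2% and 27.2% of 515 processed_transcript genes, 17.9% and 14.9% of 4867 lincRNA genes, and 17.1% and 13.5% of 1967 antisense genes. Genes with more annotated starts, which have more windows for a peak to fall in, were open more often. The shares were 14.3% and 11.8% for 1 start, 29.2% and 23.8% for 2 to 4, and 51.9% and 44.4% for 5 or more. Processed_transcript genes also had the stronger peaks, with median signals of 0.836 and 1.36, against 0.651 and 0.964 for lincRNA genes and 0.68 and 0.992 for antisense genes.

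Named lncRNA genes were grouped by what they are known for. The lists were not matched to all genes by number of starts, and 51.9% and 44.4% of genes with 5 or more starts were open. Hosts of snoRNAs and other broadly expressed lncRNAs were open in the largest share. Of 18 that could qualify, 16 had a lncRNA-start peak in replicate 1 and 15 in replicate 2 (88.9% and 83.3%, beside 18.7% and 15.4% of all such genes). For each listed gene the value is its highest lncRNA-start signal in each library. Those highest peaks overlap in 31 of the 35 listed genes with a peak in both, and Sox2ot, Pantr2, Mir124a-1hg and Mir124-2hg are the exceptions. The medians of the highest signals of the snoRNA hosts and broadly expressed genes were 3.81 in replicate 1 and 3.74 in replicate 2. Snhg8, a snoRNA host, had 9.44 in replicate 1 and 10.1 in replicate 2. Snhg15, a snoRNA host too, came next with 8.14 and 9.24. Snhg5, another, had 5.96 and 6.16. Malat1, the abundant nuclear speckle RNA, had 5.02 in replicate 1 and 7.33 in replicate 2. Neat1, which scaffolds paraspeckles, had 4.59 and 4.79. Of those with a peak in both libraries the lowest was Pvt1, a neighbour of Myc, with 1.26 and 1.41. Gas5 had a lncRNA-start peak only in replicate 1, at 0.354, and its strong peak (9.33 in replicate 2) lay within 1 kb of a coding start. The peaks at Tug1, Snhg1, Snhg3, Snhg9, Zfas1, Snhg18 and Cep83os also lay within 1 kb of a coding start and are not counted.

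Genes known from neural tissue were open less often than the snoRNA hosts. In each library 8 of 15 that could qualify had a lncRNA-start peak (53.3%), with median signals of 1.20 in replicate 1 and 1.29 in replicate 2. That share was above the 18.7% (replicate 1) and 15.4% (replicate 2) of all lncRNA genes with a start over 1 kb from coding starts. 1700020I14Rik stood far above the rest of this list, with 6.27 in replicate 1 and 7.68 in replicate 2. Miat, a lncRNA of neurons and retina, had 1.76 and 2.27 and by mean the most footprints of any pair, 12 in replicate 1 and 7 in replicate 2. Pantr1 and Pantr2, which lie beside the cortical factor gene Pou3f3, had 1.47 and 1.57 (Pantr1) and, at peaks that overlap, 0.969 and 1.25 (Pantr2). Rmst, which works with SOX2 in human neurogenesis, had 0.484 and 0.722. Sox2ot, which overlaps Sox2, had its highest peaks at different starts, 0.432 in replicate 1 and 0.451 in replicate 2 with 363026 bp between them, and its stronger overlapping pair had 0.302 and 0.417. Of the listed antisense and divergent RNAs of homeobox genes, Dlx6os1, Six3os1, Pax6os1, Otx2os1, Nkx2-2os and Lhx1os had no peak in either library. Dlx1as had 2 peaks in replicate 1, up to 0.531 and within 1 kb of a coding start, and none in replicate 2. Emx2os, Bc1, Gm2694 and A330008L17Rik had peaks in both libraries that lay within 1 kb of a coding start.

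MicroRNA hosts were open in 8 of 11 genes in replicate 1 (72.7%) and 6 of 11 in replicate 2 (54.5%), beside 18.7% and 15.4% of all such genes. Their median signals were 1.83 and 2.81. Mir9-3hg, host of the neural miR-9, had 2.17 in replicate 1 and 2.79 in replicate 2, and C130071C03Rik, host of another miR-9 copy, had 2.91 and 2.83. Mir124a-1hg and Mir124-2hg, hosts of the neuronal miR-124, had at their overlapping peaks 1.24 and 2.18 (Mir124a-1hg) and 1.24 and 1.77 (Mir124-2hg), though in replicate 1 a peak elsewhere at their starts was higher, at 1.5 and 1.46. Mir142hg and Mir155hg, hosts of microRNAs of blood and immune cells, had peaks of 0.932 and 0.521 in replicate 1 and none in replicate 2. Mir17hg, host of a cluster tied to proliferation, had no peak in either library.

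The imprinted list was open in 6 of 8 genes in both libraries (75%), beside 18.7% and 15.4% of all such genes. Its median signals were 1.14 in replicate 1 and 1.19 in replicate 2. Kcnq1ot1 had 3.78 in replicate 1 and 3.71 in replicate 2, and Nespas, antisense to the Gnas locus, had 3.64 and 3.17. Meg3, counted in the neural list too, had 1.43 and 1.31, and Airn, antisense to Igf2r, had 0.849 and 1.06. H19 was low, with 0.38 and 0.496, and Snhg14, whose transcript runs antisense into Ube3a, was lower still with 0.208 and 0.406. The only Snhg14 peak, chr7:59706361-59706620 in replicate 1, lay at a start inside the gene. Its outermost start, at 59975759 on the minus strand, had no peak in either library. Rian and Mirg, downstream of Meg3 in the same imprinted cluster, had no peak at their own starts in either library. The peak lists do not separate the parental alleles.

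Genes known from other tissues were open in 4 of 18 (22.2%) in replicate 1 and 1 of 18 (5.56%) in replicate 2, near the 18.7% of all such genes in the first and below the 15.4% in the second. Hotair, Hottip, Hotairm1, Haglr, Hoxa11os, Hoxb3os, Hoxb5os and Halr1, all in or next to Hox clusters, had no peak in either library, nor did Mhrt of heart muscle, Hnf1aos1 of liver, Carmn or Platr10. Fendrr and Foxl2os had peaks in 1 library, all within 1 kb of a coding start. The only one with a peak in both was Wt1os, with 0.354 and 0.406. Bvht (0.813), Trp53cor1 (0.667) and Lncenc1 (0.443) had a peak in replicate 1 only. All of these values lay below 1.

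**Figure D4:**
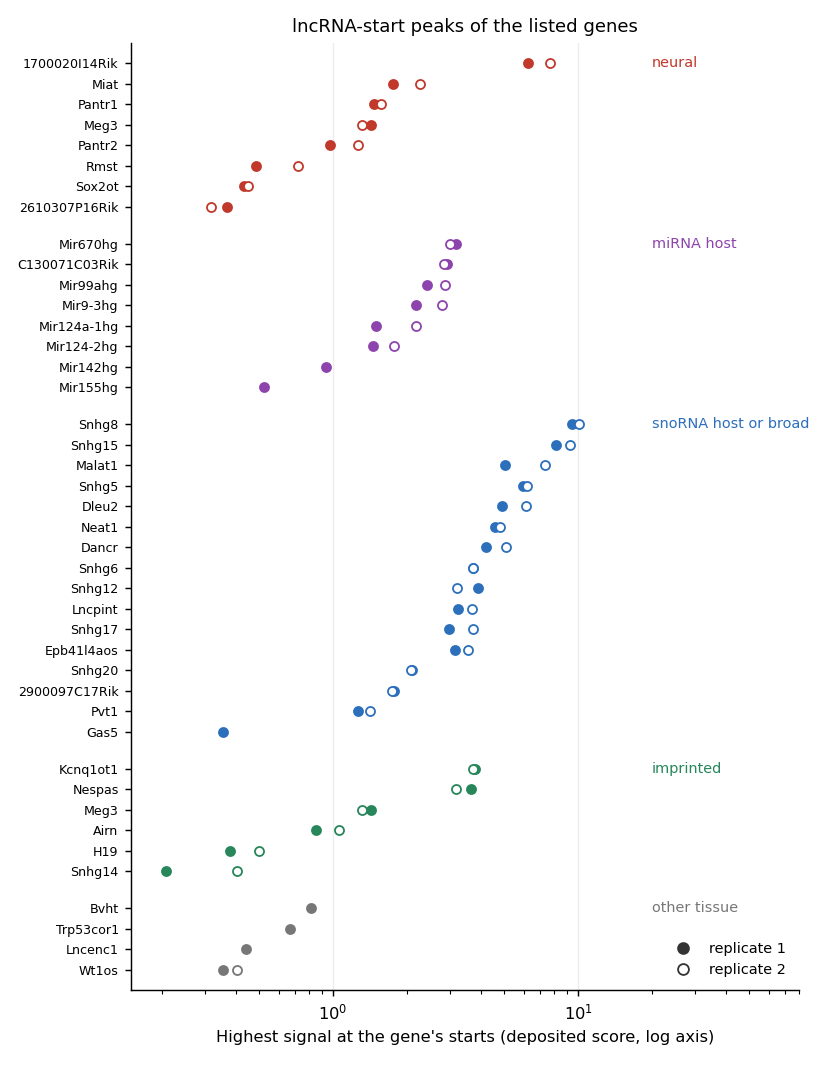
Highest signal at the starts of each listed lncRNA gene with a lncRNA-start peak (deposited score, log axis), with filled points for replicate 1 and open points for replicate 2, grouped by list; a missing point means no lncRNA-start peak in that library. The snoRNA hosts and broadly expressed genes lie mostly above the other lists, and the 4 genes of other tissues lie below 1.

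CpG content set the lncRNA starts between the other classes. The median CpG ratio of the lncRNA-start peaks was 0.409 in replicate 1 and 0.434 in replicate 2, against 0.745 and 0.766 at coding starts and 0.252 and 0.262 away from starts. A ratio of 0.6 or more was found in 475 (26.5%) of the lncRNA-start peaks of replicate 1 and 403 (29.0%) of those of replicate 2, and in 67.7% and 71.7% of coding-start peaks. Those CpG-rich lncRNA starts had median signals of 1.30 and 2.02, and 82.5% and 95.3% were shared. CpG-poor ones, with a ratio under 0.3, had median signals of 0.51 and 0.756, and 57.7% and 78.2% were shared. At a ratio of 0.6 or more, lncRNA starts were still weaker than coding starts, whose medians were 2.39 and 2.90, and stronger than peaks away from starts, with 0.745 and 1.07. Under 0.3 the classes lay closer, with 0.563 and 0.835 at coding starts and 0.479 and 0.688 away from starts.

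Peaks were most frequent just upstream of the start, though most lay elsewhere in the window. The midpoint was upstream in 57.0% of lncRNA-start peaks of replicate 1 and 58.5% of those of replicate 2, and the median distance to the start was 139 and 128 bp. The last 100 bp before the start, in 50 bp bins, held 12.5% and 13.5% of the peaks in replicate 1 and 13.2% and 14.2% in replicate 2, and each of the other bins at most 10.1%. Upstream peaks were stronger, with medians of 0.802 in replicate 1 and 1.17 in replicate 2 against 0.578 and 0.902 at or past the start. They were also shared more often, in 73.2% and 88.9% against 61.7% and 84.9%. The start itself fell inside the peak in 44.6% and 46.2%. At the edge of the rule, the outermost 50 bp of the 500 bp window on both sides held 94 and 81 peaks with median signals of 0.771 and 0.868, and the next 50 bp, left out by the rule, held 88 and 72 peaks with 0.565 and 0.789.

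**Figure D5:**
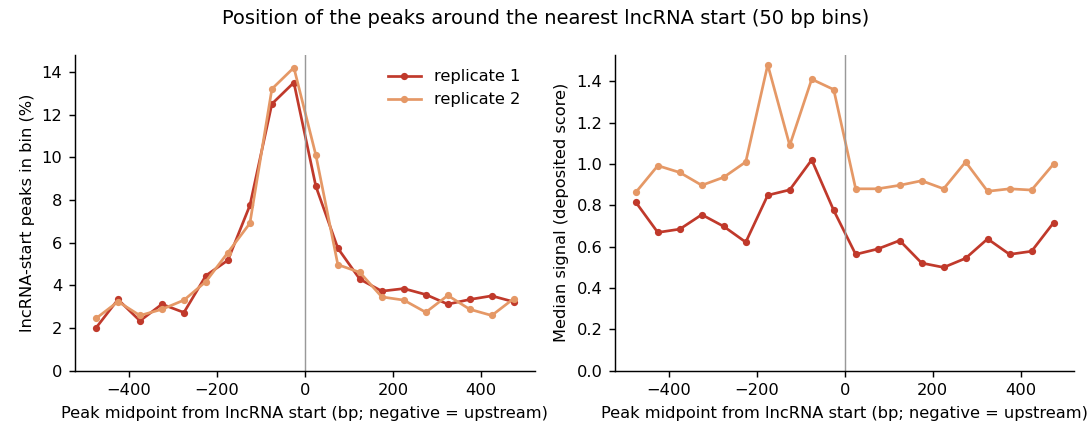
Share of lncRNA-start peaks (left) and their median signal as deposited score (right) by distance of the peak midpoint from the nearest lncRNA start in 50 bp bins, with negative values upstream, for each library. Both libraries peak just upstream, at 13.5% and 14.2% in the last bin before the start, and the median signal at or past the start (0.578 and 0.902) is below that upstream (0.802 and 1.17).

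Signal was lower far from coding genes, with no steady trend nearer by. Peaks 1 to 5 kb from the nearest coding start made up 19.8% and 20.5% of the lncRNA-start peaks and had median signals of 0.802 and 1.11. Those at 5 to 50 kb, the most numerous at 41.9% and 41.5%, had nearly the same medians, 0.776 and 1.12. Those over 50 kb away made up 38.3% and 37.9%, with medians of 0.557 and 0.801. Sharing was highest in the middle class, at 69.8% and 89.8%, against 68.0% and 83.9% for the nearest and 66.7% and 86.3% for the farthest. LncRNA starts within 1 kb of a coding start, which the rule leaves out, had 1982 and 1799 peaks with medians of 1.65 and 2.21. Starts of other gene types, such as small RNAs or pseudogenes, lay in the 500 bp window of only 84 (4.68%) and 64 (4.61%) of the peaks. Few windows had over 50% of their bases in soft-masked repeats, 1.23% in replicate 1 and 1.22% in replicate 2.

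Footprints inside lncRNA-start peaks numbered 4733 in replicate 1 and 3094 in replicate 2, with a median width of 10 bp in both libraries. A footprint of the other library overlapped 38.5% of those of replicate 1 and 59.3% of those of replicate 2, near the 39.4% and 61.5% over all autosomal peaks. The shares were 52.5% and 69.2% at coding starts and 32.2% and 56.1% away from starts. Within shared peaks alone they were 45.1% and 61.3% at lncRNA starts, and 47.8% and 64.1% over all autosomal peaks. Coding starts then had 55.9% and 69.9%, and peaks away from starts 42.4% and 60.1%. In the deposited score, peaks with more footprints were stronger. Those with none had median signals of 0.359 in replicate 1 and 0.553 in replicate 2, and those with 5 or more 1.63 and 2.88. Sharing went the same way, at 27.9% and 68.1% with none against 94.1% and all with 5 or more. After Miat, the pairs with most footprints were Gm15287 with 9 in replicate 1 and 8 in replicate 2, Gm44066 with 6 and 11, 5930403N24Rik with 13 and 4, and Lncpint with 9 and 8. These pairs, Miat included, were 380 to 600 bp wide in replicate 1, where the median lncRNA-start peak was 213.5 bp. The 5930403N24Rik peak was 600 bp wide in replicate 1 but only chr10:37140861-37141080 in replicate 2, so its counts cover unlike stretches. Of the 1065 pairs, 37 had no footprint in either library, and the strongest of these was Gm16897 with signals of 1.21 and 1.51. The share of such pairs over all autosomal peaks is not given here, so whether 37 is few or many is left undecided.

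Factor sequences were searched on both strands in the 200 bp around each midpoint. At least 1 of the 18 was found in 40.4% (replicate 1) and 42.7% (replicate 2) of lncRNA-start windows, and in 40.9% and 42.6% of all autosomal windows. Sequences common at coding starts were rarer at lncRNA starts. The NRF1 consensus was in 1.45% and 1.66% of lncRNA-start windows, against 6.06% and 6.49% at coding starts and 1.71% and 2.07% of all windows. CCGGAAG (ETS) was in 4.46% and 4.54%, against 9.84% and 10.5% at coding starts and 3.6% and 3.98% of all. GGGGCGGGG (SP and KLF) was in 4.35% and 5.40%, against 13.5% and 13.8% at coding starts and 4.39% and 4.91% of all. CCAATCA (NF-Y) was nearer to the coding level, at 4.24% and 5.47% against 6.02% and 6.25% at coding starts and 3.16% and 3.31% of all windows.

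The remaining sequences, of which not all are given, followed no single order between the classes. CAGATG, an E-box of the kind neuronal bHLH factors bind, was in 17.2% and 16.6% of lncRNA-start windows, against 8.48% and 8.18% at coding starts, 22.4% and 23.3% away from starts and 18.5% of all windows in both libraries. TATAAA was in 4.79% and 4.97%, against 2.37% and 2.50% at coding starts and 4.95% and 5.10% of all. TGACGTCA (CRE) was in 1.45% and 1.87%, against 2.19% and 2.26% at coding starts, 0.421% and 0.385% away from starts and 0.836% and 0.897% of all. The CTCF consensus was in 3.29% and 4.10%, against 1.26% and 1.32% at coding starts, 6.83% and 8.12% away from starts and 5.17% and 5.91% of all. The MEF2 sequence was in 1.06% and 0.864%, beside 0.451% and 0.454% of all windows, though on 19 and 12 windows only. AP1 matches were in 4.57% and 4.61%, near the 4.31% and 4.41% of all. No lncRNA-start window held the ZBTB33 or ZNF143 sequence, each found in under 1% of coding-start windows. The RFX half-site was in 1.78% and 1.73% of lncRNA-start windows, beside 0.874% and 0.879% of all windows, though on 32 and 24 windows only. A stretch can match more than 1 of these, since the RFX half-site is part of the longer RFX sequence.

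How often a match lay under a footprint (at least 0.5 of its bases) differed by factor. CTCF matches did so in 58 of 59 cases in replicate 1 and 51 of 57 in replicate 2. NRF1 matches did in 20 of 25 and 21 of 22, CRE matches in 22 of 26 and 16 of 26, and SP and KLF matches in 62 of 93 and 44 of 87. ETS matches did in 18 of 87 and 14 of 72, CAGATG in 62 of 337 and 46 of 250, and TATAAA in 12 of 93 and 9 of 80. Over all autosomal peaks too CTCF, NRF1 and CRE matches were covered more often than ETS, CAGATG and TATAAA matches. The shares there were 93.3% and 82.6% for CTCF, 79.7% and 80.5% for NRF1, and 75.8% and 69.7% for CRE. They were 67.8% and 59.7% for SP and KLF, beside 66.7% and 50.6% at lncRNA starts. For ETS they were 26.7% and 23.9%, beside 20.7% and 19.4%. For CAGATG they were 19.9% and 15.6%, beside 18.4% in both libraries. For TATAAA they were 8.11% and 6.90%, beside 12.9% and 11.2%. The order within CTCF, NRF1 and CRE differed. At lncRNA starts CRE (22 of 26) stood above NRF1 (20 of 25) in replicate 1 and NRF1 (21 of 22) above CTCF (51 of 57) in replicate 2, on few matches, while over all peaks CTCF came first, NRF1 next and CRE last in both libraries.

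Peaks found in 1 library were mostly weak. The 570 lncRNA-start peaks of replicate 1 with no overlapping peak in replicate 2 had a median signal of 0.406, and the 177 of replicate 2 had one of 0.564. The authors also deposited, for each library, a table that lists the bases where their false discovery rate for an excess of cuts was under 0.05, which tells how the other library looked there. It listed at least 1 base of 97 (17%) of the unshared peaks of replicate 1 in replicate 2, and of 58 (32.8%) of those of replicate 2 in replicate 1. At coding starts these shares were 27.7% and 61.6%, away from starts 9.25% and 16.6%, and over all unshared autosomal peaks 12.4% and 24.6%. A peak of the other library lay under 200 bp away in 17.5% and 31.6% of the unshared lncRNA-start peaks. Over all unshared autosomal peaks these shares were 9.83% and 19.6%. At coding starts they were 26.0% and 45.7%, and away from starts 6.66% and 14.3%.

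The strongest unshared ones were nearly all of that adjoining kind. The strongest in replicate 1 was at 5930403N24Rik, chr10:37141261-37141480, with a signal of 3.52, all 220 of its bases listed in the table of replicate 2, and a peak of replicate 2 at 180 bp. Within replicate 1 it overlaps a wider peak of the same gene, chr10:37140861-37141460, which is paired with a replicate 2 peak (4.09 and 3.68). The locus was thus called open in both libraries. Gm38293 on chromosome 1 had a peak in each library, 1.87 in replicate 1 and 1.43 in replicate 2, that abut with 0 bp between them and so do not overlap. The next in replicate 1, B230208H11Rik (1.58), AC154766.4 (1.56) and Gm11527 (1.55), had every base listed and a peak of replicate 2 at 80, 20 and 60 bp. In replicate 2, Gm45605 (2.85) and Gm26901 (1.39) had every base listed and a peak of replicate 1 at 40 and 20 bp, and Zfhx2os (1.47) had 307 of 340 bases listed. Gm15978 (1.34), with 15 of 228 bases listed, was the exception among these, with its nearest peak of replicate 1 at 240 bp. Below the first 5 of replicate 1 came Mir124a-1hg (1.5), Mir124-2hg (1.46), 1700012D14Rik (1.42) and Gm3764 (1.27). Their nearest peaks of replicate 2 lay at 263, 312, 300 and 3411 bp. All 120 bases of 1700012D14Rik were listed, 40 of 740 at Mir124a-1hg, and none at Mir124-2hg or Gm3764.

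A few genes had several peaks in 1 library and few in the other. Peaks of a list can overlap one another, as 6.13% of the lncRNA-start peaks of replicate 1 and 3.96% of those of replicate 2 did, so separate sites are given too. At least 3 more lncRNA-start peaks in 1 library were found at 10 genes for replicate 1 and at 2 for replicate 2. At the 10, replicate 1 had 47 peaks at 43 separate sites, of which 37 peaks had no overlapping peak in replicate 2. These genes were picked for their uneven counts, so a high unshared number follows from the choice. Replicate 1 also has more peaks in all, 104654 against 81654. The table of replicate 2 listed a base in 1 of the 37, beside 17% of all unshared lncRNA-start peaks of replicate 1. The 2 genes were Gm13327 and Gm16105, each with 3 peaks at 2 sites in replicate 2 and none counted in replicate 1. Of their 4 unshared peaks, 3 had a listed base in the table of replicate 1, beside 32.8% of all unshared lncRNA-start peaks of replicate 2. Mir124a-1hg, on chromosome 14, had 7 lncRNA-start peaks at 5 separate sites in replicate 1 with signals of 0.646 to 1.5, against 1 in replicate 2 with 2.18. Mir124-2hg, on chromosome 3, had 5 peaks in replicate 1 with 0.604 to 1.46 against 1 in replicate 2 with 1.77, and none of its 4 unshared peaks had a listed base. Hectd2os, antisense to Hectd2 on chromosome 19, had 5 peaks at 4 sites in replicate 1 with 0.146 to 0.677 and none in replicate 2. Gm3764 on chromosome 3 had 7 peaks at 6 sites against 3, and its 3 shared peaks reached 2.43 in replicate 1 and 3.12 in replicate 2. Both miR-124 hosts thus showed several called peaks in replicate 1 beside a single narrow peak in replicate 2. No difference of treatment or age between the libraries is given in the labels.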

How the data were processed

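DNase-seq libraries of 2 biological replicates were analysed. Per the labels and the text files deposited with them, peaks, footprints and cut-rate tables were called per library in mm10 coordinates. For the aligner and the callers, names and versions were not given in the sources used here. Of the 2 deposited peak lists the longer was used. Its signal is the authors' score per peak, deposited with no stated scaling, so sequencing depth is unknown and a tilt of a peak to 1 library was read only from the centred log2 ratio. The deposited false discovery rate (a p-value type of measure) was read only at unshared peaks. All deposited footprints carry the same value and were not ranked.

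Midpoints were set against GENCODE M21, and sequence came from GRCm38.p6; no peak ran past a chromosome end. Sharing and footprints needed an overlap of 1 bp. The CpG ratio was computed in 300 bp and motifs in 200 bp around the midpoint. Distance, overlap, motif and CpG functions were checked on simulated intervals. Python 3.11.15, pandas 2.3.3, numpy 2.4.6 and pysam 0.24.0 were used.

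The members, gene lists and motifs were chosen with earlier results of these data known. Named genes are the 10 pairs with the highest mean signal, the 5 strongest unshared peaks of each library, the 5 pairs with most footprints, the 3 most tilted pairs either way, and the listed genes; 1 tissue marker gene is not reported here, so the tissue check covers part of its list. With 2 libraries of 1 group no test was run; whether the replicates came from separate animals is not given in the labels, so their spread may be technical. Alternatives changed the distances, gene types, peak list and overlap.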

Additional observations from a re-analysis of the deposited data

How the results depend on the processing

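Values here are means of the 2 libraries. Of 66 alternatives that keep both libraries, 53 moved a value by less than the SD between libraries (for counts, by less than 1.5 times) and 13 moved it further. The number of lncRNA-start peaks, 1592, was 994 with lincRNA genes only, 1006 in the shorter list and 902 among the strongest 50% of peaks. Median signal, 0.84, was 1.32 in the shorter list and 1.5 among the strongest 50%. The share with a footprint, 79.6%, was 89.7% and 95.5% there, and the median CpG ratio, 0.422, was 0.491 and 0.505. That ratio was 0.399 with coding starts over 10 kb away and 0.444 in the peak itself. The shared share, 77.7%, was 61.8% with 50% reciprocal overlap. Windows with a motif, 41.5%, were 43.5% in the peak itself. These alternatives keep fewer or stronger peaks, stricter overlap or another window by construction. With 1 library left out, a mean of 2 always moves by less than their SD, so these values say nothing about stability; they ran from 1389 to 1794 peaks, 0.677 to 1.00 for signal, 68.2% to 87.3% shared, 75.9% to 83.2% with a footprint, 0.409 to 0.434 for the CpG ratio, 40.4% to 42.7% with a motif and 35 to 41 listed genes open. The leave-one-library values for motifs and lists were added after the data were seen. In the shorter list the order of median signals held in both libraries, 1.10 and 1.55 at lncRNA starts, 2.00 and 2.67 at coding starts and 0.818 and 1.21 away from starts.

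No paired analysis was possible because the 2 libraries belong to 1 group. Peak calls rest on unknown depth, so a start without a peak was not called open at that depth, and is not shown to be closed.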
